A study of Mus musculus with 6 samples.

Results

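The bone morphogenetic protein (BMP) ligand genes Bmp2, Bmp4, Bmp5, Bmp6 and Bmp7 and the genes of 4 secreted antagonists, Grem1, Nog, Chrd and Fst, were followed across promoter arrays hybridised with chromatin recovered by antibodies against SMAD1/5, SMAD2 and SMAD4. They were chosen by name: every probe whose annotation names 1 of these 9 genes was used, which gave 334 of 474380 probes and 9 of 16806 named genes, miRNA genes not counted. The cells were R1, a mouse embryonic stem cell line, kept undifferentiated without feeder cells in medium with knockout serum replacement and leukemia inhibitory factor. No group differed in genotype, treatment or time. The antibodies had been raised against the linker regions of the recombinant human proteins. For each antibody 1 biological replicate was hybridised, split over 2 arrays that carry different promoters, so the 6 arrays hold no replicate and no p-value is given. On every array the immunoprecipitated DNA was red (Cy5) and the whole cell extract DNA of that immunoprecipitation, the input, was green (Cy3), with no dye swap, so dye and enrichment cannot be told apart. Expression was not measured, so the labelled cell type could not be set against its marker genes. Errors are SDs over the probes of a window on 1 array and do not measure the spread between experiments.

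BMPs are secreted dimers of the TGF-beta family. They bind type I and type II receptor kinases that phosphorylate SMAD1 and SMAD5, which join SMAD4 and enter the nucleus, while Activin, Nodal and TGF-beta act through SMAD2 and the same SMAD4. Noggin (Nog), Chordin (Chrd) and Gremlin 1 (Grem1) bind BMPs outside the cell and keep them from their receptors, and Follistatin (Fst) binds Activin above all, and BMPs as well. In mouse embryonic stem cells BMP4 supports self-renewal together with leukemia inhibitory factor, and several antagonist genes are known as feedback targets of BMP signals in other tissues. The question that the arrays address at these genes is whether SMADs sit on the promoters of the ligands and antagonists that set the strength of their own pathway.

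SMAD proteins are known to bind the short element GTCT, read AGAC on the other strand, and GC-rich elements such as GGCGCC and GGAGCC. RefSeq promoters on GRCm38.p6 matched 5 of the 9 genes, Bmp4, Bmp5, Bmp6, Grem1 and Chrd. The 250 bases before the start site are shown for Grem1, which had a high SMAD4 window further upstream, for Bmp4, which had the lowest SMAD1/5 window, and for Bmp6, which had the highest SMAD2 window. Capitals mark the short element on either strand, GGCGCC, and the element GGAGCC, which reads GGCTCC on the other strand.
Grem1, chr2:113758649-113758898, minus strand: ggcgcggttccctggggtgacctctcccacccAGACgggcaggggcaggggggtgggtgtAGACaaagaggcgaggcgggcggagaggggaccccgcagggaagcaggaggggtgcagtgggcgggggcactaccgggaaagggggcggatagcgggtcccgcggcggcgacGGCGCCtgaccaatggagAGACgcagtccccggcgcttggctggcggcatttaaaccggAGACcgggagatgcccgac
Bmp4, chr14:46390670-46390919, minus strand: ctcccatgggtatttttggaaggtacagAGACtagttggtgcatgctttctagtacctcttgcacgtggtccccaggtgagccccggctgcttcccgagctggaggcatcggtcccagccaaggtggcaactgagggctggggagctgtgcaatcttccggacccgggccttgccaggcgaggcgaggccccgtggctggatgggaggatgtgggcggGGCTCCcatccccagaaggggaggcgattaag
Bmp6, chr13:38345466-38345715, plus strand: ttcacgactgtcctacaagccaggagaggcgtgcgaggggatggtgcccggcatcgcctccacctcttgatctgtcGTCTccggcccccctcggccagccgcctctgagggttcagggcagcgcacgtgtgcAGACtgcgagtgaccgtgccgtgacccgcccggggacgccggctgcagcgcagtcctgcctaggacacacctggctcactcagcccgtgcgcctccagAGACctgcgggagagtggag

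The Grem1 stretch held 4 copies of GTCT or AGAC and 1 GGCGCC, the Bmp6 stretch 3 copies of GTCT or AGAC, and the Bmp4 stretch 1 AGAC and 1 GGCTCC. The Chrd stretch had 1 AGAC, 1 GGCGCC and 1 GGAGCC, and the Bmp5 stretch 1 GTCT, inside the only copy of TGTCTG among the 5. Such letters are common: of 32851 RefSeq promoters of the same length, 82.9% held GTCT or AGAC, 26.0% GGAGCC or its reverse complement, 17.1% CAGACA or TGTCTG, and 9.59% GGCGCC. The palindrome GTCTAGAC, in 0.167% of promoters, was in none of the 5. The GC content was 78% for Chrd, 72% for Grem1, 68.8% for Bmp6, 63.2% for Bmp4 and 42.8% for Bmp5, against a median of 52.4% over all promoters. Probes were assigned to these stretches by the array annotation's distance from the start site and were not mapped to the printed bases. The 2 probes so assigned to Grem1 had a mean log2 ratio of immunoprecipitate over input of -0.60 with SMAD1/5, -0.0042 with SMAD2 and -0.30 with SMAD4, so the start of the gene was not high with any antibody. The 2 probes of Bmp6 averaged -1.76, 0.14 and -0.43 in the same order and the 2 of Bmp4 -0.27, 0.39 and -0.17.

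For 7 of the 9 genes the probes began between -5606 and -4842 bp and ended between 1614 and 2447 bp from the start site. Bmp4 had the most probes, 51 between -8870 and 2180 bp from its start site, and Grem1 and Chrd the fewest, 30 each. All 30 Chrd probes lay upstream, from -6624 to -198 bp, and the annotation of some of them also lists Thpo, the thrombopoietin gene, so a signal there could belong to either gene. Of the 35 Nog probes 20 lay in the promoter, 4 inside the gene and 11 downstream of it. Positions are those of the array annotation, for which the sources used here name no genome build, and differ from those on GRCm38.p6 above.

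Signals were read as windows. After each array was centred on its median, a window was taken around every probe: the average log2 ratio of all probes no more than 500 bp away, at least 3 of them. Its z is the distance from the array's median window in robust SDs, which were taken only from the windows below that median. The scale of z was thus set by the low side of each array, for high windows as well. A gene was called enriched when a window had a z of at least 4 and at least 2 of its probes lay above the 95th percentile of the array, and low by the same rule turned over. A z of 4 stood for a log2 ratio of 4.61 and 4.17 on the 2 SMAD1/5 arrays, 2.29 and 2.23 on the SMAD2 arrays, and 2.30 and 2.29 on the SMAD4 arrays, since single probes scattered more with SMAD1/5 (SD 1.93 and 1.76) than with SMAD2 (0.93 and 0.91) or SMAD4 (0.99 and 0.98). The 9 genes had a median of 35 windows each, against 26 over all genes with SMAD1/5 and SMAD4 and 25 with SMAD2, so they had more chances of a high window.

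With SMAD4, the partner shared by both branches, Bmp2 and Grem1 were enriched, Bmp7 was the next highest, and the other 6 genes stayed below the median gene. The peak z was 4.20 for Bmp2, 4.04 for Grem1, 3.30 for Bmp7, 1.56 for Bmp6, 1.54 for Bmp4, 1.44 for Fst, 1.40 for Chrd, 1.07 for Bmp5 and 0.78 for Nog, and the median over all genes was 1.74. Thus 2 of the 9 genes were enriched where 2.49% of 16493 genes were, and 3 of 9 reached a z of at least 2 where 40.1% did. None of the 9 had a low window, and 0.0485% of genes had one. In the order of these peaks the window means of 7 of 8 neighbouring pairs differed by less than their SE over probes, the exception being Bmp7 above Bmp6 (a difference of 0.98 with an SE of 0.62). The median peak z of the 9, 1.54, lay below that of all genes.

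**Figure D1:**
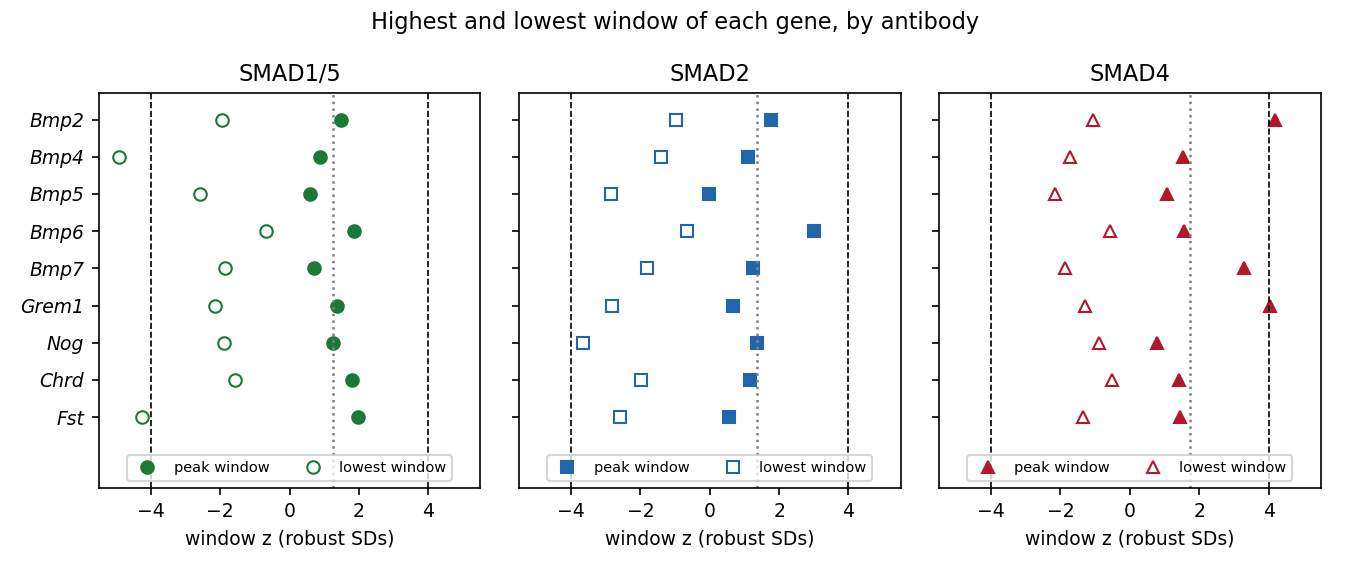
Highest (filled) and lowest (open) window z of each gene with SMAD1/5, SMAD2 and SMAD4, in robust SDs of the windows below the array's median. Dashed lines mark z of -4 and 4, and the dotted line the median peak z of all genes (1.26, 1.35 and 1.74). Bmp2 and Grem1 pass 4 with SMAD4, and Bmp4 and Fst pass -4 with SMAD1/5.

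Bmp2 encodes a ligand that acts in mesoderm, heart and bone formation. Its SMAD4 peak was centred at -4025 bp from the start site, at chr2:133289611-133290188 in the array annotation, where the window's log2 ratio averaged 2.41 ± 1.04 (SD, 4 probes). The single probes, at -4414, -4267, -4025 and -3889 bp, gave SMAD4 log2 ratios of 3.21, 2.44, 3.07 and 0.94. With SMAD2 the same probes gave 0.50, 0.82, -1.14 and 0.34, and with SMAD1/5 -2.44, -2.75, 0.82 and 0.20. The first 3 probes were thus high with SMAD4, and no probe passed 1 with the other antibodies.

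Split into channels, the SMAD4 immunoprecipitate at those 4 Bmp2 probes was below its array's median, at -0.42, -1.77, -1.55 and -0.21 log2 units. The SMAD4 input was far lower, at -3.52, -4.10, -4.50 and -1.03. On this array the median SMAD4 input signal was 5.36 times its background. The first 3 of these inputs thus lay close to background, although all 4 were flagged well above it. The size of the SMAD4 log2 ratios there is not firm. Averaged over the window, the SMAD4 input differed from the mean input of the other 2 antibodies by -2.66 log2 units, and lay below each of them (-2.75 from SMAD2 and -2.57 from SMAD1/5). The SMAD4 immunoprecipitate differed from the mean of the others by 0.38, which joins a difference of 1.44 from SMAD1/5 and one of -0.67 from SMAD2. The call was lost in 6 of 9 alternative settings: the peak z of Bmp2 was 1.13 with normexp correction, 1.92 against the input averaged over the 3 antibodies, 2.13 with the own-input trend removed, 2.61 in the authors' values, 3.40 in 1000 bp windows and 3.65 with loess. The SMAD1/5 input was not well above background at -4414 and -4025 bp, nor the SMAD1/5 immunoprecipitate at -4414 bp, so their SMAD1/5 values are uncertain.

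Grem1 encodes a cystine-knot antagonist that binds BMP2, BMP4 and BMP7. Its SMAD4 peak was centred at -1506 bp from the start site, at chr2:113609897-113610756 in the array annotation, outside the 250 bases shown above, where the window's log2 ratio averaged 2.33 ± 0.50 (SD, 6 probes). All 6 probes, from -1039 to -1842 bp, passed 1 with SMAD4, at 1.95, 2.36, 3.17, 2.33, 1.72 and 2.42. With SMAD2 the same probes gave -0.95, -2.54, -2.44, -2.77, -1.50 and 2.06, and with SMAD1/5 1.88, 2.60, 3.14, 1.31, -0.28 and -3.27. The 4 probes nearest the start site were high with both SMAD4 and SMAD1/5 and low with SMAD2, and the farthest probe was high with SMAD4 and SMAD2 and low with SMAD1/5.

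The antibodies differed in this stretch: in the window of the SMAD4 peak the SMAD1/5 z was 0.91 and the SMAD2 z -2.45, and the lowest SMAD2 window of the gene (z of -2.81, centred at -1039 bp) overlapped it. Over all 30 Grem1 probes Pearson's r between log2 ratios was 0.39 for the pair SMAD1/5 and SMAD4, -0.40 for SMAD1/5 and SMAD2, and -0.24 for SMAD2 and SMAD4. Neighbouring probes share DNA fragments, so these are descriptions of 1 promoter. In the channels the SMAD4 input lay between -2.26 and -3.40 log2 units at the 6 probes, and the window's SMAD4 input differed from the mean of the others by -2.75. All 6 SMAD4 inputs were flagged well above background. They still lay much nearer to it than the median input of the array, so the size of these log2 ratios is not firm. The immunoprecipitate differed by 0.44 from SMAD2 and by -0.47 from SMAD1/5. The SMAD2 input at the 4 probes nearest the start site was above its median, at 0.91, 0.99, 2.33 and 1.03. The SMAD1/5 immunoprecipitate was above its median there, at 1.78, 1.72, 1.58 and 0.32. The SMAD4 call of Grem1 was lost in 7 of 9 alternative settings, and the lowest peak z was 1.72, with normexp. At the farthest probe the SMAD2 input was not well above background, so its SMAD2 log2 ratio of 2.06 is uncertain.

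**Figure D2:**
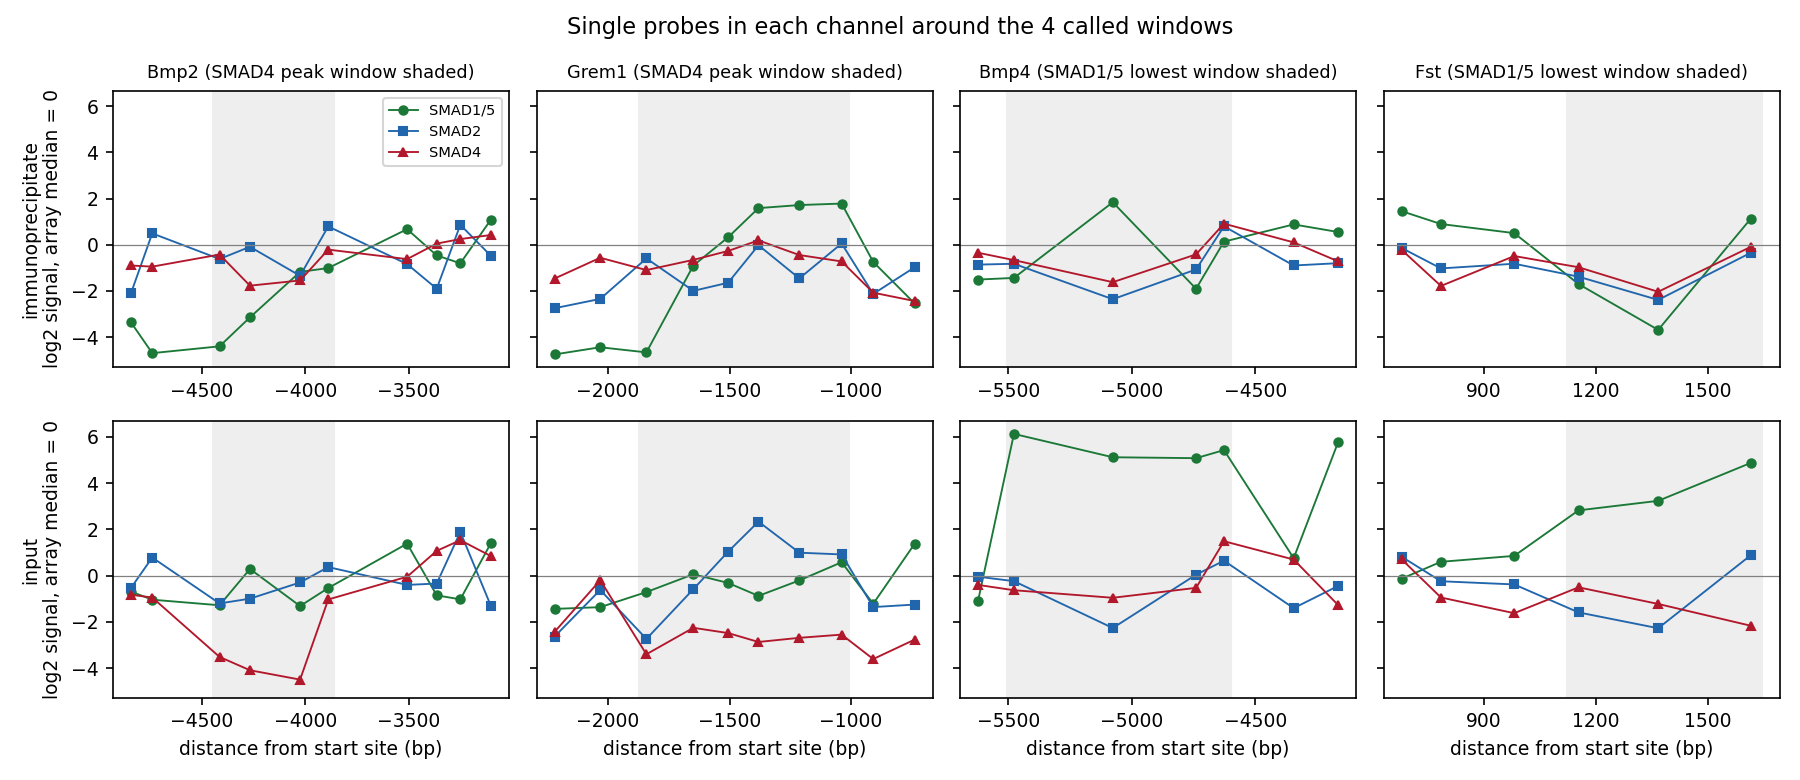
Log2 signal of single probes in the immunoprecipitate (top) and input (bottom) of each antibody, centred on each array's median, against distance from the start site in bp, around the called windows (shaded) of Bmp2, Grem1, Bmp4 and Fst. The SMAD4 input dips to -4.50 in the Bmp2 window and to -3.40 in the Grem1 window. The SMAD1/5 input rises to 6.13 in the Bmp4 window and to 4.87 in the Fst window.

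Bmp7, a ligand of kidney and eye development, had its SMAD4 peak at -2840 bp, with a window mean of 1.91 ± 1.22 (SD, 5 probes) that did not reach the threshold. Its probes from -2506 to -3274 bp gave 1.22, 2.79, 1.89, 0.30 and 3.37 with SMAD4. The SMAD4 input differed from the others by -1.60 and the immunoprecipitate by 0.44 in that window. Among the remaining genes the SMAD4 peak window of Bmp4 held 1 probe of 2.80 beside others between -0.76 and 1.97, and that of Fst had a mean of 0.87 ± 0.70 (6 probes). The SMAD4 peaks of all 9 genes lay more than 1000 bp upstream, which was so for 41.9% of all genes, while 25.5% of genes had theirs within 1000 bp of the start site. The probes of the 9 genes lean the same way: 233 of their 334 were annotated as promoter, against 239576 of 474318 over all genes.

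The SMAD4 input was then set against the other inputs. In the SMAD4 peak windows of 8 of the 9 genes the input was lower than the mean of the other inputs by 1 log2 unit or more, the exception being Fst at -0.80, and the lowest was Bmp5 at -3.38. In 7 of them it lay below both of the other inputs, by differences of -1.32 or lower. Nog was otherwise: its SMAD4 input was 0.41, above the array's median and 0.42 above the SMAD2 input, and it counted through its difference of -2.60 from the SMAD1/5 input. Over all genes 58.1% of peak windows did so, and among the 410 enriched genes 97.1%. The rule for a peak uses the ratio, which holds both channels, so these shares are descriptions. The immunoprecipitate lay at least 1 above in 0 of the 9, against 5.29% of all genes and 12.7% of the enriched ones.

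**Figure D3:**
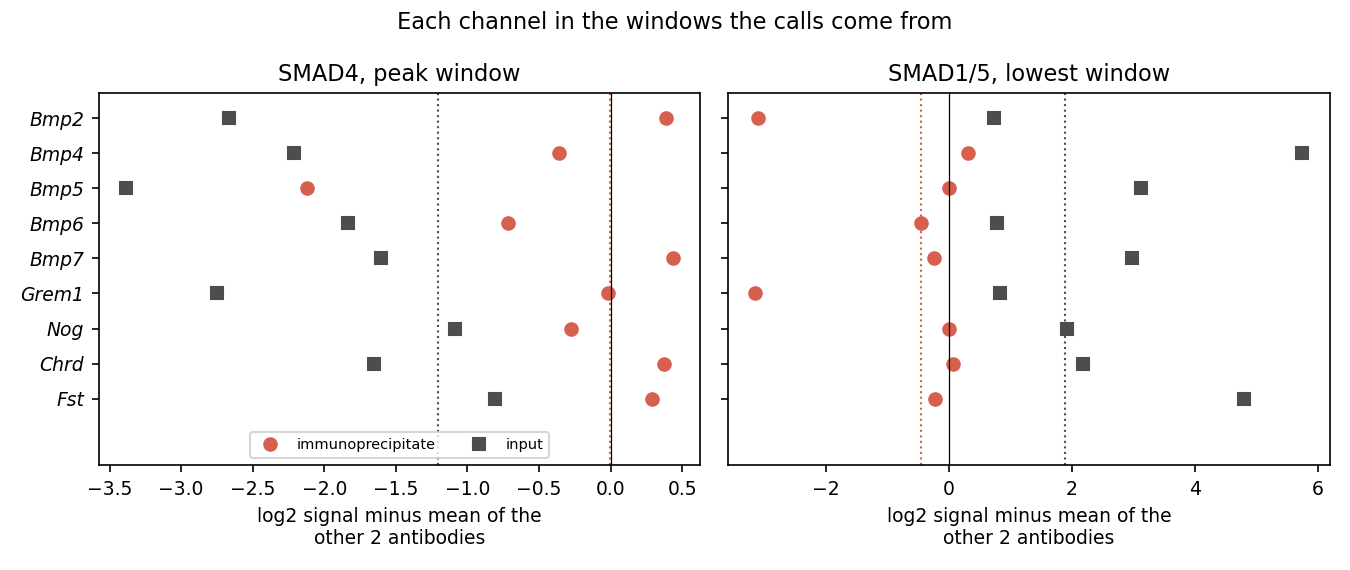
Difference of each channel from the mean of the other 2 antibodies, in log2 units, for the immunoprecipitate (circles) and input (squares) in each gene's SMAD4 peak window (left) and SMAD1/5 lowest window (right); dotted lines mark the median over all genes. On the left the inputs lie between -3.38 and -0.80; on the right the inputs of Bmp4 and Fst reach 5.75 and 4.79.

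With SMAD2, which carries Activin and Nodal signals, none of the 9 genes was enriched or low, and Bmp6 alone reached a z of at least 2. Across the genome 0.0667% of 16490 genes were enriched, 0.34% low and 18.5% reached a z of at least 2. Bmp6 encodes a ligand best known for the control of hepcidin in iron balance. Its SMAD2 peak z was 3.00, centred 2344 bp inside the gene at the end of the tiled region, and the window averaged 1.68 ± 0.14 (SD, 3 probes), with probes of 1.53, 1.80 and 1.71. The same 3 probes gave 1.98, -0.12 and -3.12 with SMAD1/5 and 0.23, 1.36 and 0.63 with SMAD4, so all 3 passed 1 with SMAD2 and 1 of 3 with each other antibody. The SMAD2 input differed from the others by -1.52 and the immunoprecipitate by 0.35.

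The other SMAD2 peak z were 1.77 for Bmp2, 1.36 for Nog, 1.26 for Bmp7, 1.17 for Chrd, 1.10 for Bmp4, 0.66 for Grem1, 0.57 for Fst and -0.03 for Bmp5, with a median over the 9 of 1.17 against 1.35 over all genes. Bmp6 lay above Bmp2 by more than the SE of the difference (0.65 with an SE of 0.61), and the other 7 of 8 neighbouring pairs did not differ by it. In the peak windows of 6 of the 9 genes the SMAD2 input was lower than the others by 1 log2 unit or more, against 45% of all genes, and the immunoprecipitate at least 1 above in 0, against 9.55%. The lowest SMAD2 windows of the 9 genes were those of Nog (z of -3.66, mean -1.97 ± 0.45, 3 probes), Bmp5 (-2.85), Grem1 (-2.81) and Fst (-2.59).

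Noggin is the BMP antagonist of the node and notochord. Its lowest SMAD2 window, centred at -3767 bp, overlapped its highest SMAD1/5 window at -3915 bp. The 4 probes at -3767, -3915, -4063 and -4366 bp gave -2.35, -2.10, -1.47 and -1.49 with SMAD2 and 0.90, 1.62, 1.07 and 1.37 with SMAD1/5, so each probe was on opposite sides of 0 in the 2 antibodies. Both windows were picked as extremes of the gene, so the opposite signs follow in part from the choice. The SMAD1/5 peak z of 1.25 was not above the median gene (1.26). Over 34 Nog probes Pearson's r between the 2 antibodies' log2 ratios was -0.16. With SMAD4 they gave -1.04, 1.49, -0.66 and 0.35. The SMAD2 input at these probes was 1.47, 0.78, -0.14 and 0.84, above the SMAD1/5 input of -1.21, -2.14, -2.16 and -0.36 at each of them, although the SMAD1/5 input at -4063 bp was not well above background.

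With SMAD1/5, the SMADs of the BMP branch, none of the 9 genes was enriched or reached a z of at least 2, while Bmp4 and Fst had a low window. Across the genome 0% of 16493 genes were enriched, 5.97% reached a z of at least 2 and 2.62% were low. The peak z was 1.98 for Fst, 1.86 for Bmp6, 1.80 for Chrd, 1.48 for Bmp2, 1.38 for Grem1, 1.25 for Nog, 0.88 for Bmp4, 0.70 for Bmp7 and 0.58 for Bmp5. Their median was 1.38 against 1.26 over all genes, and no neighbouring pair of the 8 differed by more than its SE. The highest, at Fst, was a window of 2.02 ± 1.50 (SD, 3 probes), centred at -5606 bp.

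Bmp4, the ligand that supports self-renewal, had the lowest window of the group. It was centred at -5077 bp, at chr14:41711872-41712775 in the array annotation, with a SMAD1/5 mean log2 ratio of -5.34 ± 1.92 (SD, 4 probes) and a z of -4.93. Its probes at -5477, -5077, -4740 and -4627 bp gave -7.12, -2.84, -6.54 and -4.85. With SMAD2 they gave -0.65, -0.16, -1.18 and 0.08, and with SMAD4 0.07, -0.56, 0.21 and -0.47, so the window was low with SMAD1/5 alone. The SMAD1/5 input at these probes was 6.13, 5.12, 5.08 and 5.43 log2 units above its median, and 5.75 above the mean of the other inputs, while the immunoprecipitate differed from the others by 0.31. The flanking probes at -5622 and -4345 bp had SMAD1/5 inputs of -1.08 and 0.75, so the high input ended at the next probe on each side, and it was high again, at 5.77, at the probe -4165 bp from the start site.

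The low Fst window was centred 1614 bp inside the gene, at chr13:111629381-111629892 in the array annotation and at the end of the tiled region, with a SMAD1/5 mean of -4.62 ± 1.65 (SD, 3 probes) and a z of -4.25. Its probes at 1154, 1367 and 1614 bp gave -4.08, -6.47 and -3.31. The SMAD1/5 input was 2.82, 3.23 and 4.87 there, 4.79 above the mean of the others, and the immunoprecipitate differed by -0.22. Neither gene was called low against the input averaged over the 3 antibodies or after removal of the own-input trend, and Fst was not called low with normexp, 250 bp or 1000 bp windows or the window median either. In the lowest SMAD1/5 windows of 6 of the 9 genes the input lay at least 1 log2 unit above the others, against 71.2% of all genes and all 432 of the genes called low. With quantile scaling of each channel it did so in 4, Bmp7 and Nog falling to 0.98 and 0.93. The immunoprecipitate lay at least 1 below in 2, Bmp2 (-3.10) and Grem1 (-3.14), against 30.7% of all genes. In the peak windows the SMAD1/5 input lay at least 1 below the others in 2, against 13.2% of genes, and the immunoprecipitate at least 1 above in 2, against 21.9%.

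In the lowest SMAD1/5 windows of Bmp2 and Grem1 the immunoprecipitate was the lower channel. At the Bmp2 probes from -4842 to -4267 bp the immunoprecipitate was -3.35, -4.69, -4.39 and -3.14, below the input of -0.69, -1.04, -1.28 and 0.29. At the 3 Grem1 probes from -2220 to -1842 bp it was -4.75, -4.43 and -4.66. Both SMAD1/5 channels were not well above background at the Bmp2 probes at -4739 and -4414 bp and the Grem1 probes at -2220 and -2032 bp, so the values there have no firm size. Some of these probes also entered the SMAD4 peaks of the same 2 genes, where the SMAD4 input was low.

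**Figure D4:**
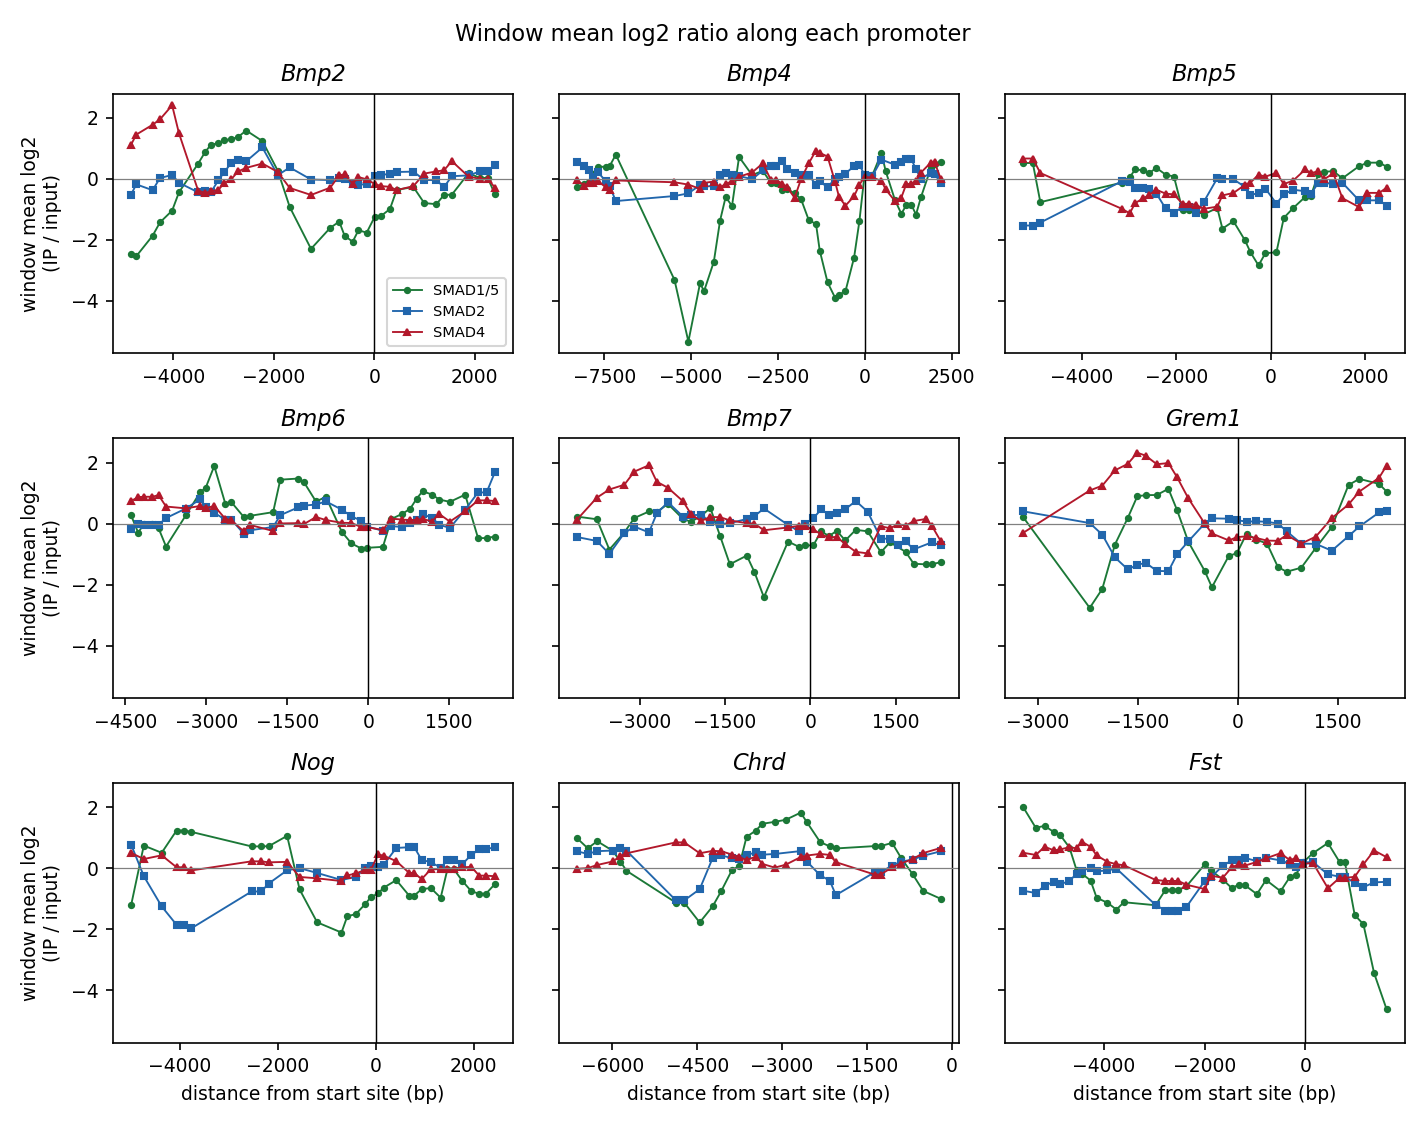
Window mean log2 ratio of immunoprecipitate over input against distance from the start site in bp (vertical line) for each gene with SMAD1/5 (green circles), SMAD2 (blue squares) and SMAD4 (red triangles). SMAD4 rises upstream of Bmp2, Grem1 and Bmp7 to 2.41, 2.33 and 1.91, and SMAD1/5 falls to -5.34 at Bmp4 and to -4.62 at the right end of Fst.

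Single probes of the 9 genes were also set beside all probes of the arrays. The median log2 ratio over the probes of the 9 genes was -0.10 with SMAD1/5 (333 probes), -0.03 with SMAD2 (329) and 0.02 with SMAD4 (334), where all probes have 0 by the centring. A log2 ratio above 1 was found at 24.6% of their probes with SMAD1/5 against 27.5% of all probes, at 10.6% against 12.7% with SMAD2, and at 14.7% against 16.5% with SMAD4. Ligand and antagonist genes had medians of -0.11 and -0.06 with SMAD1/5, -0.03 and -0.0035 with SMAD2, and -0.03 and 0.10 with SMAD4. Within 500 bp of the start site the mean SMAD1/5 log2 ratio was -0.91 ± 1.66 (SD, 51 probes), against -0.50 ± 1.77 over all genes, and the SMAD1/5 input of the 9 genes there averaged 1.84 against 1.23. With SMAD2 and SMAD4 the means there were -0.0018 and -0.04. At Bmp2 the probes at -152 and 5 bp had SMAD1/5 log2 ratios of -4.16 and -3.27, with SMAD1/5 inputs of 6.01 and 5.22.

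Across the probes of the 9 genes the log2 ratios of the antibodies had almost no relation: Pearson's r was 0.02 for SMAD1/5 and SMAD2 (328 probes), 0.13 for SMAD1/5 and SMAD4 (333) and -0.01 for SMAD2 and SMAD4 (329). The immunoprecipitate channels correlated with r of 0.62, 0.63 and 0.78 in the same order, and the inputs with 0.51, 0.45 and 0.49. The points share probe sequence and base composition, so these values describe the channels and carry no p.

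The rest of the pathway was read from 3 lists, against the same shares of all genes. A z of at least 2 was reached by 40.1% of all genes with SMAD4, 18.5% with SMAD2 and 5.97% with SMAD1/5. With SMAD4 2.49% were enriched, and with SMAD1/5 2.62% were low. The genes of the lists, in the order below, had a median of 27, 33 and 30 windows with SMAD4, against 26 over all genes. They thus had more chances of a high window. Of 13 other BMP family ligands 1 was enriched with SMAD4, Gdf10, whose window at -4052 bp averaged 2.80 ± 0.72 (SD, 6 probes), a z of 4.93, and 6 reached a z of at least 2. Of 19 other secreted antagonists and modulators 0 were enriched and 12 reached 2, led by Nbl1, a BMP antagonist, at 3.41. Of 11 receptors and co-receptors 0 were enriched and 4 reached 2, led by the Activin receptor gene Acvr2a at 3.25. With SMAD2, 2, 2 and 3 genes of the 3 lists reached 2, led by Gdf5 at 2.63, Chrdl2, a chordin-like antagonist, at 3.84 and the type I receptor gene Acvr1 at 2.36. With SMAD1/5 the counts were 0, 2 and 3, led by Bmp10 at 1.77, Bmp1, a protease that cleaves chordin, at 2.13 and the co-receptor gene Rgma at 2.27. With SMAD1/5, 1 gene of each list was low: Bmp3 (z of -4.38), Kcp (-4.18) and the decoy receptor gene Bambi (-4.36). No gene of these lists was enriched with SMAD1/5 or SMAD2.

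The genes whose 3 peak z were nearest to those of Bmp2, by Euclidean distance over 3 antibodies among 16490 genes, were Cry2 (0.075), Grin2b (0.11) and B3galt1 (0.14). For Grem1 they were Ncbp1 (0.14), Klri1 (0.15) and Lcn8 (0.15). All 6 had a SMAD4 peak z between 4.02 and 4.21, a SMAD1/5 peak z between 1.26 and 1.55 and a SMAD2 peak z between 0.63 and 1.79. Their closeness follows from the choice, which was made on these same values.

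Over 9 alternative settings the SMAD4 peak z of Bmp2 reached at most 4.93, and that of Grem1 at most 4.20, both with the window median. In the authors' deposited values Grem1 had 3.12. Bmp7 kept a z of at least 2 with SMAD4 in 8 of 9 settings, and Bmp6 with SMAD2 in 6. The share of all genes at that z was not taken in these settings. No SMAD4 low window and no SMAD1/5 or SMAD2 enriched window appeared at any of the 9 genes under any of the 9 settings.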

How the data were processed

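The deposited scanner files give an intensity for each spot and channel and flags (other values, 0 or 1), made by Agilent Feature Extraction, version 9.1.3.1 for SMAD1/5 and SMAD2 and 9.5.3.1 for SMAD4, per the file headers. SMAD4 alone has the later version, so the antibody and the version of extraction cannot be told apart there. The deposited tables of log2 values, for which the submitters' processing notes name limma, rise with the scanner's own log2 ratio, with r between 0.74 and 0.95 and a slope between 0.44 and 0.90. Column medians were 0.08 and -0.01 (SMAD1/5), 0.05 and 0.04 (the SMAD2 arrays), then -0.0047 and -0.0023 (the SMAD4 arrays). Their scale and centring stay unknown, and they served as an alternative. Here spots with an outlier flag were left out, 0.0084% to 1.82% of probes, and log2 ratios of processed signals were centred on the array's median with no loess. The arrays' medians, windows, calls and channels were computed in Python 3.11.15 with numpy 2.4.6 and pandas 2.3.3, and normexp and loess in R 4.3.3 with limma 3.58.1. The windows were also run on simulated arrays with independent normal noise and raised stretches at known genes. Such noise has equal tails and no link between neighbouring probes, unlike these arrays, so that run cannot vouch for the calls made here. Each channel alone is its log2 processed signal centred on the array's median, so a ratio differs from the difference of its channels by a constant of the array.

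Names in the annotation were updated through RefSeq accessions in the GRCm38.p6 gene table, 16092 of 16859, and otherwise by symbol (363), by older symbol (213) or kept (191). Input lay well above background at 72.3% and 87.0% of probes with SMAD1/5, 88.5% and 86.1% with SMAD2, and 99.6% and 99.7% with SMAD4. The number of arrays limits the precision. All 9 genes were named whatever their values, with list members that passed a call or had the highest peak z, and the 3 nearest genes to each enriched one. The genes and lists were chosen with earlier results of these data known. The 9 alternatives were normexp correction (offset 50), the authors' values, the mean input of the 3 antibodies, loess, removal of the own-input trend (the dependence of the ratio on the input signal), windows of 250 bp (at least 2 probes) and 1000 bp, bright probes only, and the window median.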

Additional observations from a re-analysis of the deposited data

How the results depend on the processing

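Counts among the 9 genes changed as follows, and the cause was not tested beyond each setting's own construction. The 2 SMAD4 enriched genes became 0 with normexp correction, the authors' values, the mean input of the 3 antibodies, loess, removal of the own-input trend and 1000 bp windows, and 1 (Bmp2) with 250 bp windows. The 3 genes at a SMAD4 z of at least 2 became 1 with normexp, 1 with the mean input and 4 with 250 bp windows, where Bmp4 reached 2.63. The 2 SMAD1/5 low genes became 1 (Bmp4) with normexp, 250 bp windows, 1000 bp windows and the window median, and 0 with the mean input and with the own-input trend removed. The 0 genes at a SMAD1/5 z of at least 2 became 4 with normexp, 2 with the mean input, 1 with loess, 2 with the own-input trend removed, and 1 each with 250 bp windows and the window median. The 1 gene at a SMAD2 z of at least 2 became 2 with the mean input, 4 with 250 bp windows, 0 with 1000 bp windows and 3 with the window median. The share of all genes at a z of at least 2 was taken in the main setting alone. The moved counts at that z therefore have no background beside them and cannot be read as changes particular to the 9 genes. The 0 SMAD2 low genes became 1 (Bmp4) with the mean input and 2 (Grem1 and Nog) with the window median. Counts of enriched and low genes over the genome are given where at least 1 of the 2 moved by 1.5 times or more. For SMAD4 (410 and 8) they were 51 and 2 with normexp, 83 and 9 for the authors' values, 2 and 195 by the mean input, 158 and 27 with loess, 3 and 300 with the own-input trend removed, 681 and 8 in 250 bp windows, 275 and 12 in 1000 bp windows and 1110 and 12 by the window median. For SMAD1/5 (0 and 432) they were 858 and 2774, 28 and 1274, 6 and 34, 11 and 511 and 1 and 28 in the first 5 of these settings. For SMAD2 (11 and 56) they were 2 and 5, 5 and 115, 5 and 513, 8 and 96, 5 and 9, 17 and 137, 18 and 80, 7 and 45 with bright probes only, and 254 and 784. With quantile scaling of each channel, the input lay at least 1 below the others in the peak windows of 7 genes in place of 8 with SMAD4, 4 in place of 6 with SMAD2 and 3 in place of 2 with SMAD1/5. The median log2 ratio of the 9 genes moved by less than the SD between genes in the 6 settings run on it for each antibody. No paired analysis was possible because each antibody has 1 replicate. A z of 4 took 24.4-fold and 18.0-fold on the SMAD1/5 arrays, for which the cause was not tested, and values at probes not well above background have no firm size.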
